A study of Drosophila melanogaster with 6 samples.

Results

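The RNA levels of 10 genes that transcribe piRNA clusters, cut their transcripts into piRNAs or act with Piwi were followed in ovaries of Drosophila melanogaster with and without Gcna. The genes were taken by name from a table of 13216 rows of genes and repeats: rhi, del, cuff and CG12721 (current symbol moon) for cluster transcription, armi, zuc, shu and vret for biogenesis, egg for the silencing mark, and piwi itself. All 10 had a row and all 10 passed the filter on low values. Total RNA of whole ovaries from females aged 1 to 3 days was depleted of ribosomal RNA and sequenced in 6 libraries. The control group was the stock wBerlin (3 libraries), and the flies compared with it were homozygous for a Gcna null allele, made with a CRISPR knock-in construct and then outcrossed to wBerlin for 10 generations (3 libraries, GCNA null). Females of both stocks spent 24 hours on wet yeast at 25 °C and were then dissected. Gcna encodes a germ cell nuclear protein, and the labels do not say whether the null stock derives from more than a single founder.

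piRNAs are small RNAs that guide Argonaute proteins of the Piwi family to transposon transcripts. In the ovarian germline most of their precursors come from clusters inside heterochromatin, where Rhino (rhi), an HP1 relative, binds the chromatin and recruits Deadlock (del) and Cutoff (cuff), and where Moonshiner (moon), a germline relative of a TFIIA subunit, starts transcription without promoter sequences. Precursors are then cut by the mitochondrial nuclease Zucchini (zuc) with the helicase Armitage (armi), the Tudor protein Vreteno (vret) and the co-chaperone Shutdown (shu). Piwi carries the piRNA into the nucleus, where the histone methyltransferase Eggless (egg) lays down the mark of silent chromatin. In follicle cells, which lack Rhino and Moonshiner, Piwi, Armitage, Zucchini and Vreteno act on precursors of other clusters.

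The libraries held 38401723 to 55758180 recovered reads. CG14814, the row of Gcna, fell to 2.51% of its wild type mean. Replicates 1 and 2 of GCNA null were barely more different than sampling noise allows (chi-square of 1.66 per degree of freedom over all rows, against 26.9 to 100.4 for the other 5 pairs within a group) and were averaged into 1 sample, so that n is 3 wild type and 2 GCNA null samples in every mean ± SD and test. The labels do not tell whether libraries of a stock come from different flies, and the p-values therefore reflect a spread that could be purely technical. Ovary markers were present throughout. Summed over 12 germline genes, including osk, nos and vas, they took 0.886% to 0.989% of wild type reads and 0.829% to 0.892% of GCNA null reads, and 11 of the 12 had a negative difference (median log2 difference -0.14), although pgc, which was higher, alone passed the test. Over 12 follicle cell genes the shares were 0.0579% to 0.0622% and 0.0578% to 0.0668%, 10 of 12 were positive and peb alone passed. Eggshell genes, active late in oogenesis, took 3.10% to 3.41% of wild type reads, 1.37% and 1.32% in replicates 1 and 2 of GCNA null, and 3.20% in its replicate 3. The part of these marker shares in the differences between the stocks was not tested, apart from the scaling to germline markers given beside rhi, armi and shu. In whole ovaries, fewer cells of a type and less RNA per cell cannot be told apart.

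Per kilobase of annotated exon the 10 genes spanned a wide range of levels in wild type ovaries. piwi led with 4072 ± 111 normalized counts per kb (SD, n = 3), above 91.9% of the 9167 protein-coding genes tested. armi (3276 ± 107), del (3110.0 ± 176) and shu (2841 ± 69.9) followed. The libraries of armi and del overlapped in this order, while those of del lay above those of shu. moon stood at 1306 ± 134 normalized counts per kb, less than shu and more than vret (1014 ± 78.5) without overlap. egg (906 ± 36.9) and zuc (832 ± 34.1) overlapped with each other, and rhi (754 ± 56.3) lay below both. cuff was the scarcest at 243 ± 25.9 normalized counts per kb, above only 29.4% of coding genes. The members of the Rhino, Deadlock and Cutoff complex were thus measured at quite unequal transcript levels, with 11.1 to 13.9 times as much del as cuff per kb in the wild type libraries. Reads over the wild type libraries ranged from 924 for cuff to 39912 for armi, and the spread between wild type libraries from 2.46% of the mean for shu to 10.7% for cuff. In GCNA null ovaries rhi moved from the ninth place in this order to the sixth.

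**Figure D1:**
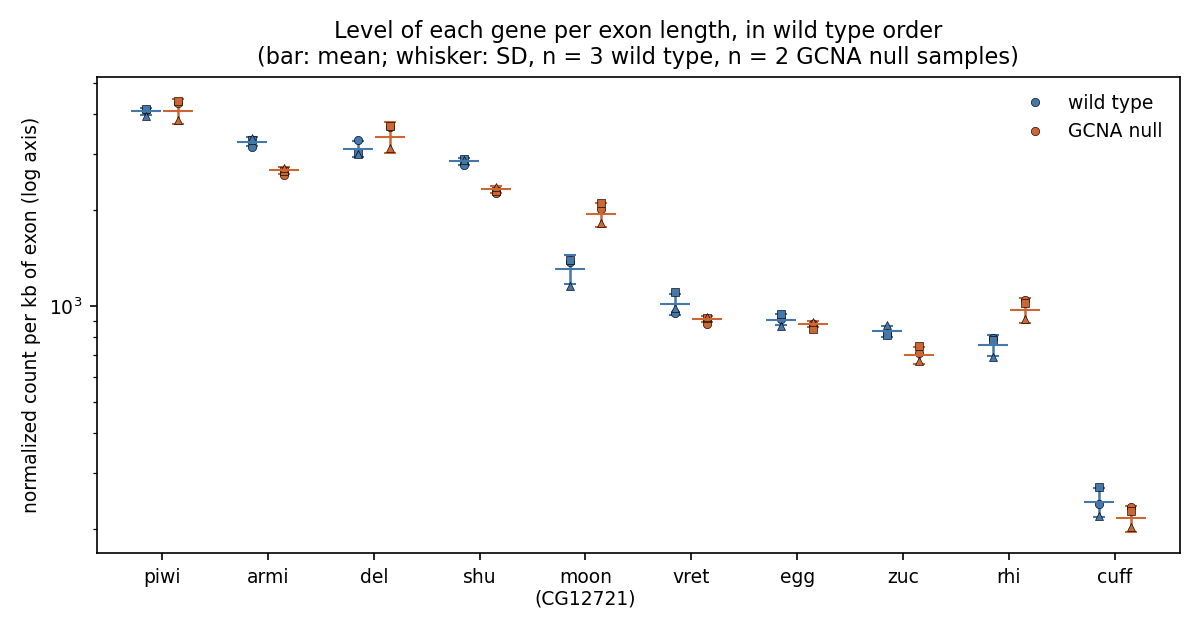
Normalized counts per kb of exon (log axis) for each gene, in the order of the wild type means, with the 6 libraries as points (circle, square and triangle for replicates 1 to 3), means as bars and SD as whiskers over 3 wild type and 2 GCNA null samples. piwi stands at 4072 and cuff at 243 in wild type, and moon and rhi are the genes whose GCNA null points all lie clearly above the wild type points.

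Of the 10 genes, 1 was higher (moon) and 2 were lower (armi and shu) in GCNA null ovaries, and 7 did not pass (limma on log2 of the normalized count plus 1, two-sided, Benjamini-Hochberg adjusted p under 0.05 over 10132 rows). Over all tested rows 4.25% were higher and 2.11% lower. The median log2 difference was -0.10 over the 10 genes and -0.00045 over all rows. All 4 biogenesis genes had a negative difference and 3 of the 4 cluster transcription genes a positive one. None of these 8 signs changed under any alternative tried. All alternatives reused the same libraries, so they cannot show whether this split of signs by role would recur in others. The difference of del was only 0.0065 without the merged sample. With germline marker scaling those of vret and cuff were -0.035 and -0.044. The share of all rows that kept their sign was not counted. The other genes of these roles, described below, did not show such a split by role. Of 14 partners of cluster transcription and export 10 had a negative difference, and of 13 partners of biogenesis 9 did. In 6 of the 10 genes (rhi, moon, armi, shu, zuc and vret) the 3 libraries of each stock did not overlap, against 38.9% of all tested rows. The 3 calls did not hold with fewer samples. With wild type replicate 1, 2 or 3 left out, with GCNA null replicate 3 left out, or with the merged sample left out, none of the 10 passed with limma. With a wild type replicate left out, 4 or 5 of the 10 had an unadjusted limma p under 0.05, against 5 in the full comparison. The share of all rows under that p was not counted, in the full comparison or in any of these 5 omissions. Over these omissions the limma adjusted p ran from 0.056 to 0.212 for moon, from 0.066 to 0.185 for shu and from 0.072 to 0.217 for armi, with differences of 0.48 to 0.66, -0.32 to -0.26 and -0.33 to -0.27.

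**Figure D2:**
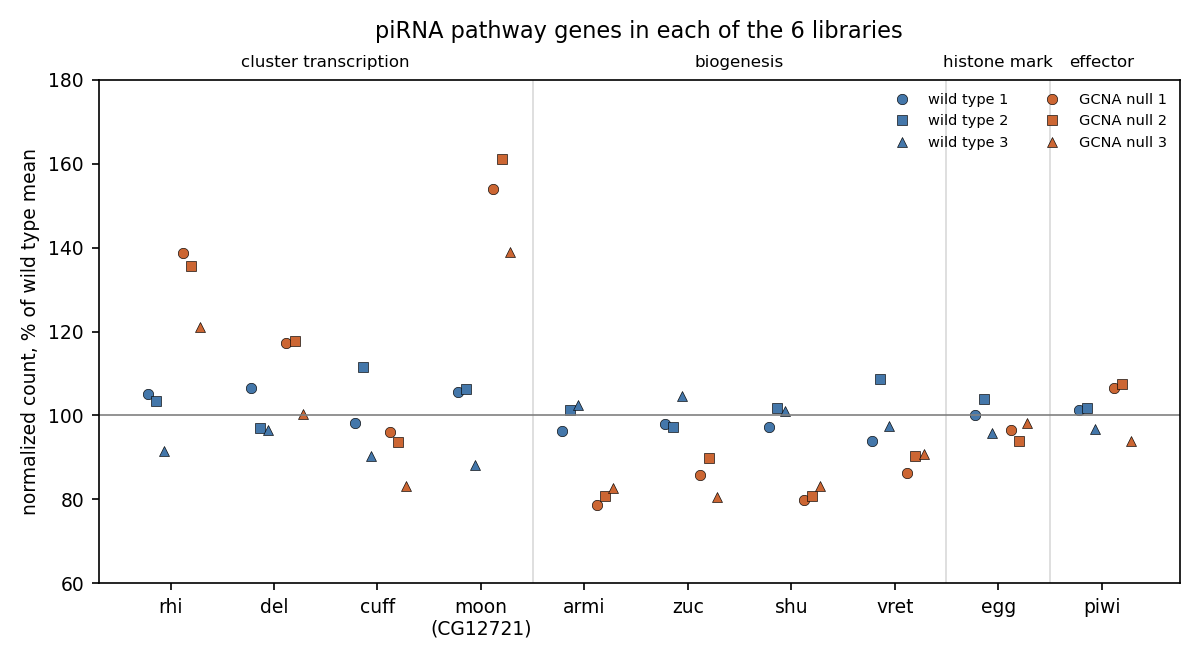
Normalized count of each gene in each of the 6 libraries as a percentage of the wild type mean (wild type in blue, GCNA null in orange, symbols for replicates 1 to 3). The GCNA null points of moon and rhi lie above those of wild type, those of armi, zuc, shu and vret lie below, and those of del, cuff, egg and piwi overlap with them.

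moon, the gene that licenses transcription inside Rhino-bound clusters, had the largest difference among the 10. The wild type libraries 1 to 3 held 1117, 1127 and 934 normalized counts of it, and the GCNA null libraries 1632, 1707 and 1472. The lowest GCNA null library lay well above the highest wild type library. moon rose from 1059.5 ± 109 to 1571 ± 140 (n = 3 and 2; limma log2 difference 0.57, SE 0.11, 95% interval 0.30 to 0.84, adjusted p = 0.035), to 148% of wild type. It passed under all 13 alternatives that kept every library.

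rhi, which marks the clusters, stood at 1245, 1224 and 1082 normalized counts in wild type and at 1642, 1606 and 1432 in GCNA null ovaries. All GCNA null libraries were above all wild type libraries. Its mean was 1184 ± 88.4 and 1528 ± 136, a log2 difference of 0.37 (SE 0.10, 95% interval 0.14 to 0.60) that did not pass (unadjusted p = 0.0074, limma adjusted p = 0.081). It passed as higher in 4 of the 13 alternatives that kept every library. Fits on 6 separate samples count GCNA null replicates 1 and 2, barely more different than sampling noise, as independent. With limma on 6 separate samples the adjusted p was 0.018 without a replicate block, where 16.6% of all rows passed. With the block it was 0.017, where 640 rows were higher and 477 lower. rhi also passed with DESeq2 (adjusted p = 0.014), where 12.8% of all rows did. The fourth was limma on libraries scaled to the germline markers (adjusted p = 0.045), a scaling chosen after the data were seen.

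The partners of Rhino did not show a difference past the test. del had 10906, 9933 and 9876 normalized counts in wild type and 12011, 12056 and 10274 in GCNA null ovaries (log2 difference 0.12, 95% interval -0.088 to 0.33, limma adjusted p = 0.457). GCNA null replicates 1 and 2 were above every wild type library, and replicate 3 lay inside the wild type range. cuff had 309.5, 351 and 284 against 302, 295 and 262 (log2 difference -0.17, 95% interval -0.51 to 0.18, limma adjusted p = 0.537), with overlapping groups. cuff rested on the fewest reads, 924 in wild type and 897 in GCNA null libraries, and had the widest interval of the 10.

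Ratios between genes of the same library do not depend on how libraries are scaled. Per kb, rhi over cuff was 3.32, 2.88 and 3.14 in wild type and 4.48, 4.49 and 4.51 in GCNA null libraries. rhi over del was 0.239, 0.258 and 0.230 in wild type and 0.287, 0.279 and 0.292 in GCNA null. In both ratios every GCNA null library was above every wild type library. del over cuff was 13.9, 11.1 and 13.7 against 15.6, 16.1 and 15.4, again without overlap. moon over armi was 0.437, 0.419 and 0.343 in wild type and 0.781, 0.796 and 0.669 in GCNA null. These ratios were chosen after the values were seen and were not tested.

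**Figure D3:**
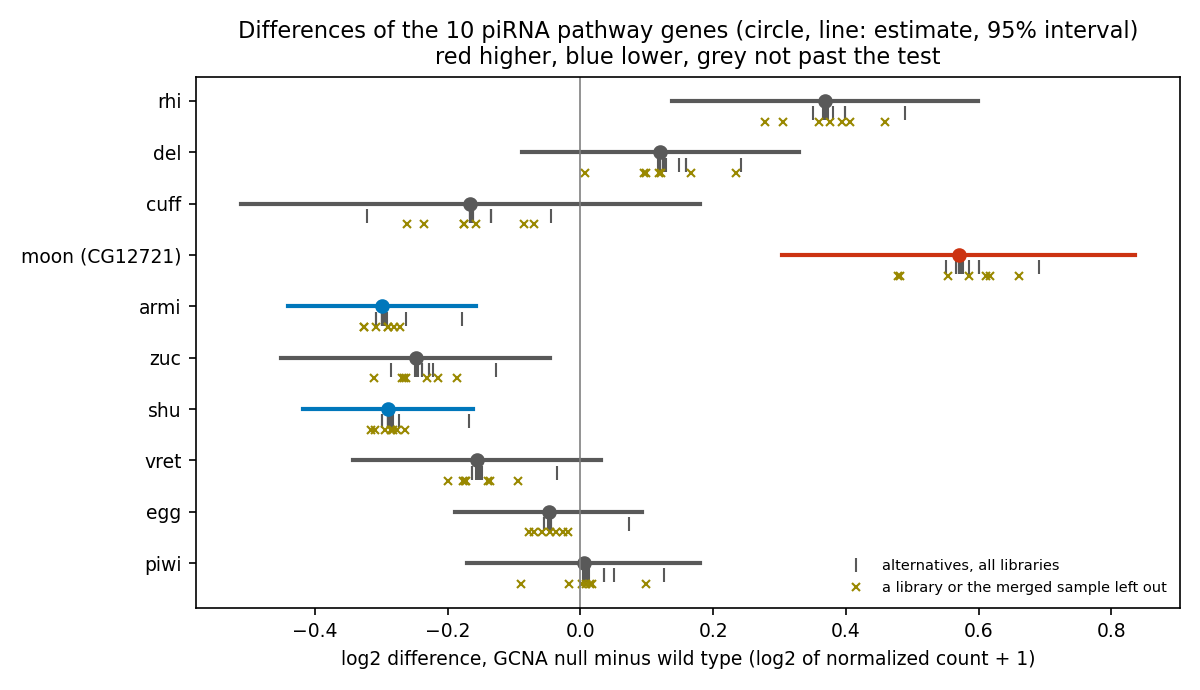
Log2 difference (GCNA null minus wild type) of each gene with its 95% interval from limma, coloured red for higher, blue for lower and grey for not past the test, with ticks for alternatives that kept all libraries and crosses for those that left out a library or the merged sample. The interval of moon runs from 0.30 to 0.84 and those of armi and shu lie below 0, while germline marker scaling brings armi to -0.18, shu to -0.17 and vret to -0.03, and cuff ranges from -0.32 to -0.04 over quantile normalization and that scaling.

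moon and rhi both lie inside other genes, and among these hosts CG10936, which holds rhi, passed the test as higher while the 2 around moon did not pass. moon is a gene of 811 bp in a single exon on the X chromosome at 12072008 to 12072818 of BDGP6 (dm6), transcribed from the minus strand inside introns of Ten-a, a teneurin gene, and of the non-coding gene CR43960, both on the opposite strand. Their exons do not overlap that of moon. Ten-a had 369, 376 and 458 normalized counts in wild type and 715, 731 and 510.3 in GCNA null ovaries (limma log2 difference 0.60, SE 0.18, adjusted p = 0.112), and CR43960 had a log2 difference of 0.41 (limma adjusted p = 0.348). Within 3 kb of moon, CG34323 on the opposite strand rose from 21.6 ± 3.81 to 69.9 ± 1.99 (limma log2 difference 1.66, SE 0.27, adjusted p = 0.021), and the non-coding gene CR43961 on the same strand had a log2 difference of 0.52 (limma adjusted p = 0.050, not past the test). In all of these 4 rows every GCNA null library was above every wild type library. Whether reads of Ten-a introns enter the count of moon depends on the strand setting of the counting, a detail that the sources used here do not give.

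rhi lies on chromosome 2R at 17628491 to 17633516, on the minus strand, with 3 exon blocks, inside CG10936, a longer gene on the same strand whose exons do not overlap those of rhi. CG10936 rose from 1077 ± 42.4 to 1896 ± 175 normalized counts (limma log2 difference 0.81, SE 0.08, adjusted p = 0.0044), with 1089, 1112 and 1029.98 in wild type and 1757, 1787 and 2019 in GCNA null libraries. Unspliced reads of this host cannot be told apart from reads of rhi by strand. The share of such reads was not analysed here. CG10936, CG34323 and CR43961 were chosen after their values were seen.

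**Figure D4:**
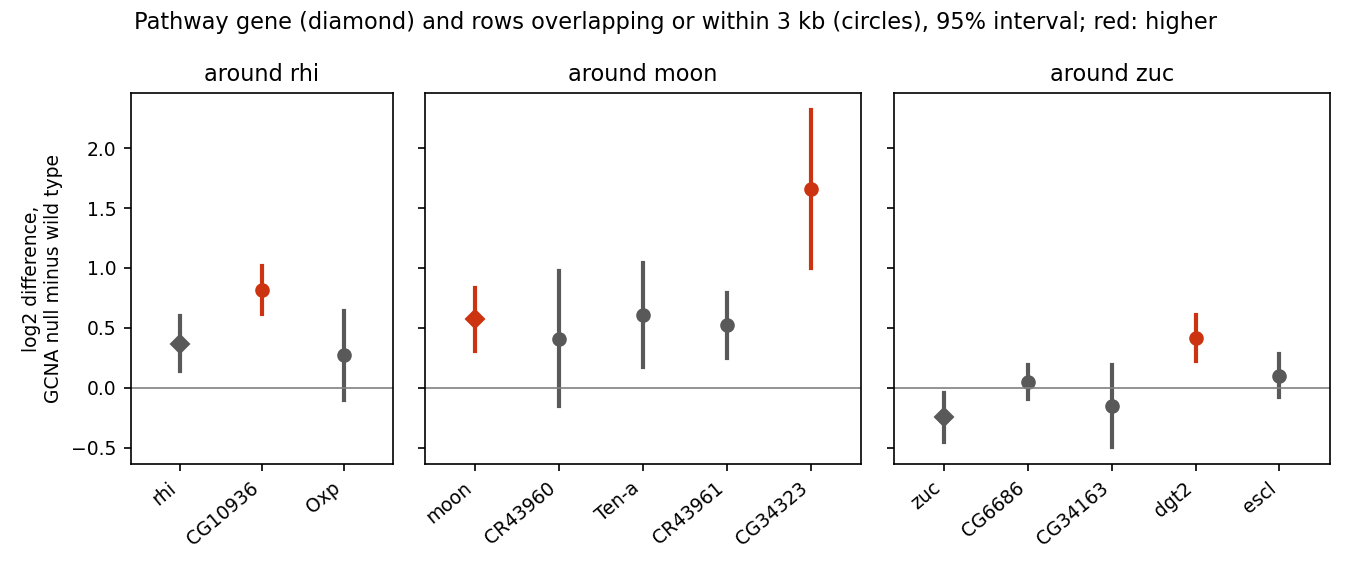
Log2 difference (GCNA null minus wild type) with 95% interval for rhi, moon and zuc (diamonds) and for the tested rows that overlap them or lie within 3 kb (circles), with rows past the test in red. All rows around moon are positive, CG10936 around rhi has 0.81, and dgt2 beside zuc has 0.42 while zuc has -0.25.

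The 4 biogenesis genes had lower means in GCNA null ovaries, and armi and shu passed the test. armi, the helicase that feeds precursors to Zucchini, gave 13127, 13804 and 13969.6 normalized counts across wild type libraries and 10725, 11006 and 11289 across GCNA null libraries. The groups were well apart. armi fell from 13634 ± 446 to 11077 ± 299 (limma log2 difference -0.30, SE 0.06, 95% interval -0.44 to -0.16, adjusted p = 0.036), to 81.2% of wild type. shu, a co-chaperone of the FKBP family needed to load Piwi proteins, fell from 4813 ± 118 to 3936 ± 99.1 (limma log2 difference -0.29, SE 0.05, 95% interval -0.42 to -0.16, adjusted p = 0.030), to 81.8% of wild type. Its libraries held 4677, 4898 and 4862 normalized counts in wild type and 3839, 3893 and 4006 in GCNA null ovaries. shu over armi per kb was almost constant, at 0.855 to 0.875 in wild type and 0.869 to 0.879 in GCNA null libraries, a ratio chosen after its values were seen.

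The call of armi lay near the threshold. It was lost with quantile normalization (log2 difference -0.26, adjusted p = 0.061) and with edgeR on recovered reads (log2 difference -0.29, adjusted p = 0.052), which called 6.44% of all rows, at differences close to the -0.30 of limma. The calls of both armi and shu were lost with libraries scaled to the germline markers, where the differences were -0.18 (adjusted p = 0.141) and -0.17 (adjusted p = 0.153) and the median of all rows stood at 0.12. armi lies on chromosome 3L at 3461317 to 3466314, and the current annotation places CG46463, with no row of its own here, over 99.6% of its exon bases on the same strand. shu lies on chromosome 2R at 23841461 to 23843286, where CG46398, also with no row of its own here, overlaps 2.60% of its exon bases on the opposite strand.

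zuc and vret had lower values that did not pass. zuc, the nuclease that makes the 5′ ends of phased piRNAs, had 937, 929 and 1001 normalized counts in wild type and 819, 859 and 770.0 in GCNA null ovaries (limma log2 difference -0.25, SE 0.08, 95% interval -0.45 to -0.05, unadjusted p = 0.023, adjusted p = 0.148). Every GCNA null library lay below every wild type library. Its neighbour dgt2, an augmin subunit gene that starts 53 bp from the start of zuc and runs the other way, rose from 1229 ± 62.5 to 1640 ± 118 (limma log2 difference 0.42, SE 0.08, adjusted p = 0.035), a row chosen after its values were seen. vret had 2217, 2567 and 2299.8 against 2038, 2133 and 2145 (log2 difference -0.16, 95% interval -0.34 to 0.03, limma adjusted p = 0.288). Its groups did not overlap, but the gap between them was smaller than the spread among the wild type libraries.

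egg and piwi overlapped between the stocks. egg had 3570.2, 3708 and 3417 normalized counts in wild type and 3443, 3344 and 3499.8 in GCNA null ovaries (log2 difference -0.05, 95% interval -0.19 to 0.09, limma adjusted p = 0.666). piwi had 12688, 12734 and 12122 in wild type and 13344, 13454 and 11763 in GCNA null ovaries (log2 difference 0.005, 95% interval -0.17 to 0.18, limma adjusted p = 0.980). For piwi, GCNA null replicates 1 and 2 were above every wild type library and replicate 3 was below every one. Replicate 3 was also the lowest GCNA null library in rhi, del, cuff, moon and zuc, whereas in armi, shu, vret and egg replicate 3 was the highest.

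Of 57 other genes of the pathway in 4 lists, 3 were higher and 2 lower. This share of 8.77% was near the 6.37% of all rows called in either direction. The median log2 difference of the 57 genes was -0.04. Among 14 partners of cluster transcription and precursor export 1 was higher and none lower: TfIIA-S-2, a paralog of the small TFIIA subunit, rose from 3.08 ± 0.245 to 15.9 ± 1.15 normalized counts (9 and 51 reads; limma log2 difference 2.05, SE 0.42, adjusted p = 0.040). At these low counts the log2 difference was 1.11 with a pseudocount of 8, and the call was lost with quantile normalization (1.498, adjusted p = 0.107) and with DESeq2 (2.38, adjusted p = 0.067). TfIIA-S and Trf2, the partners of Moonshiner, had log2 differences of -0.04 and 0.24 (limma adjusted p = 0.816 and 0.297). The Rhino-guiding zinc finger gene CG2678 (kipf) had -0.19 and CG13741 (Boot), which exports cluster transcripts, -0.13, neither past the test. These 4 genes were chosen after their values were seen. The list of cluster transcription and export partners named 15 genes, and no row was found for nxf3.

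Among 13 partners of biogenesis 1 was higher and none lower. BoYb, a germline Tudor helicase gene related to fs(1)Yb, rose from 2971 ± 89.1 to 4066 ± 11.6 (limma log2 difference 0.45, SE 0.05, adjusted p = 0.0074). The median of this list was -0.07 and 9 of 13 differences were negative. Among 17 genes of Piwi-directed silencing 1 was higher and 1 lower. wde (Windei), the cofactor of Eggless, rose from 7012 ± 602 to 9230.2 ± 124 (limma log2 difference 0.40, SE 0.08, adjusted p = 0.036). nxf2, which binds Piwi targets together with Panoramix, fell from 4707 ± 155 to 3467 ± 499 (limma log2 difference -0.45, SE 0.09, adjusted p = 0.041), with 4602, 4884 and 4634 in wild type and 3069.6, 3159.9 and 3819.9 in GCNA null libraries. Replicate 3 was the GCNA null library closest to wild type, and the call was lost with germline marker scaling (-0.33, adjusted p = 0.101). Panoramix itself (CG9754) had a log2 difference of 0.05. Among 13 nuage and ping-pong genes qin alone passed, as lower (log2 difference -0.64, limma adjusted p = 0.0054), and the median was -0.0032. Over the 5 omissions named above, the limma adjusted p reached 0.066 for BoYb, 0.055 for qin, 0.154 for nxf2, 0.179 for wde and 0.229 for TfIIA-S-2.

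Transposons were compared by the tissue in which piRNAs are known to hold them down. Of 12 rows of elements controlled mainly in the germline, 5 were higher and none lower. Besides the telomere elements, with TART_B1:Jockey:LINE and HETA:Jockey:LINE at log2 differences of 4.82 and 1.51, this held only MAX_I-int:Pao:LTR at 0.60. BURDOCK_I-int:Gypsy:LTR, an element that rises when rhi is lost, had 1157 and 751 normalized counts on average (log2 difference -0.60, limma adjusted p = 0.111). Of 10 rows of elements controlled mainly in follicle cells, 3 were higher and none lower: both parts of Idefix, with IDEFIX_I-int:Gypsy:LTR going from 777 ± 75.0 to 2107 ± 489 (limma log2 difference 1.42, SE 0.16, adjusted p = 0.0054) and IDEFIX_LTR:Gypsy:LTR at 1.23, and ZAM_LTR:Gypsy:LTR at 1.13. GTWIN_I-int:Gypsy:LTR differed by -0.62 on the log2 scale (limma adjusted p = 0.168). MAX, Burdock, ZAM and gtwin were chosen after their values were seen. Rows higher thus occurred in both lists, beside 4.25% of all rows, while members such as Burdock and gtwin had lower values that did not pass. In sum the germline list took 0.0430% to 0.0469% of wild type reads and 0.0740% to 0.0899% of GCNA null reads. The follicle cell list took 0.0243% to 0.0325% and 0.0268% to 0.0271%. How the transposon calls hold with samples left out is not given here. piRNAs themselves and the transcripts of their clusters were not analysed here.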

How the data were processed

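Ovary RNA of 3 wild type and 3 GCNA null libraries was compared from a single deposited table. The labels' protocols give an extraction that keeps RNA from 18 nt, ribosomal depletion and strand-specific libraries for Illumina sequencing. The submitters' processing notes name CASAVA 1.8.2, STAR 2.5, DESeq2 and dm6. Nothing used here names the read counter, its strand setting or the annotation. The authors deposited values of the unit signal, read counts divided by 1 size factor per library. Whole reads were recovered for 100% of values (within 1e-06), so depth is known.

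The 10 genes and all gene lists were chosen with earlier results of these data known. The test was limma 3.58.1 (R 4.3.3), with the variance following the mean level, on log2(normalized count + 1) and no block. Rows needed 10 or more normalized counts in 3 or more libraries (10132 rows), and the fit was checked on simulated data. GCNA null replicates 1 and 2 were averaged. Named genes were the 10, up to 2 called genes of each list with the largest differences (the most abundant where none was called), rows that overlap a called gene, and Gcna; others are marked in the text. Rows were matched by symbol or synonym to Ensembl release 115 (12830 of 13000 gene rows), whose assembly BDGP6 has dm6 coordinates. Levels per kb use the union of annotated exons. Alternatives were other pseudocounts, filters, scalings and samples, robust empirical Bayes, a replicate block, and edgeR 4.0.16, DESeq2 1.42.0 and limma-voom on recovered reads, with the reads of the merged libraries summed.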

Additional observations from a re-analysis of the deposited data

How the results depend on the processing

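Among the 10 genes, moon, shu and armi were the ones that passed with other pseudocounts or filters, TMM scaling, robust empirical Bayes and limma-voom. The number higher was 2 with 6 separate samples, with or without a replicate block, with DESeq2 and with germline marker scaling, and 0 to 1 when a library or the merged sample was left out. The number lower was 1 with edgeR and with quantile normalization, 0 with germline marker scaling, and 0 to 2 with a library left out. Over all rows 935 were higher and 749 lower with 6 separate samples, 640 and 477 with the replicate block, 755 and 542 with DESeq2, 711 and 110 with germline marker scaling, 222 to 426 and 67 to 277 with a library left out, and 94 and 52 without the merged sample, against 431 and 214. Of the other pathway genes 6 were lower with 6 separate samples, 4 with the replicate block, 4 with DESeq2 and 1 with germline marker scaling, with 1 to 3 higher and 1 to 2 lower when a library was left out, and 0 higher and 0 lower without the merged sample. The log2 difference of piwi was -0.089 without the merged sample and -0.018 to 0.099 with single libraries left out, and egg had 0.074 with germline marker scaling, values that include the other side of 0 from the main estimate, none past the test. The cause of these shifts was not tested, and the omissions change which libraries enter the fit as well as their number. Replicate numbers were taken to name samples only. Deviations of same-numbered libraries correlated at -0.18, 0.073 and -0.094 across rows, and not every library correlated best with its own number. This check cannot exclude a pairing, because GCNA null replicates 1 and 2 were nearly alike and gave nearly the same correlations. The scarcest gene, cuff, is the most limited by depth, with 924 and 897 reads per group.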
